A study of Mus musculus with 12 samples.

Results

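Growing oocytes lacking MTR4 were compared with wild-type (WT) oocytes at postnatal day 14, in poly(A) RNA measured as fragments per kilobase of transcript, scaled to library size (FPKM). The comparison covers 11748 of the 23235 gene symbols in the table, namely those whose mean over the 4 group values was at least 1 FPKM, without short RNA symbols starting with Mir, Snor, Scarna or Rnu. The study has 12 mouse samples in 4 groups of 3: WT and Mtr4-null oocytes at day 14, described in the labels as growing oocytes, and WT and Mtr4-null oocytes at day 21, at the germinal vesicle (GV) stage. Each sample was 10 oocytes from the ovary, lysed directly with oligo-dT primers and made into libraries with Smart-seq2, which covers whole transcripts and loses the strand. The labels give the genotype as MTR4-null and name no allele or Cre driver, and do not say if the 3 samples of a group are from separate animals. The day 14 columns hold 1 value per gene and group, the authors' mean, so no replicate error, interval or test can be given for any difference, depth is unknown, and a single library could set a mean. Differences are between log2(FPKM + 1) values, Mtr4-null minus WT, a scale on which weakly expressed genes show less than their true fold, and "higher" or "lower" in a count means at least 2-fold on that scale, a rule of size.

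MTR4 is an RNA helicase of the nucleus that unwinds RNA and threads it into the RNA exosome, a complex of 3′ to 5′ exonucleases. Adaptor complexes direct it to different RNAs: NEXT (with ZCCHC8 and RBM7) to short unprocessed transcripts such as promoter upstream RNAs, the poly(A) tail exosome targeting connection (with ZFC3H1) to polyadenylated nuclear RNAs, and TRAMP (with ZCCHC7 and a non-canonical poly(A) polymerase) to precursors in the nucleolus. Growing oocytes transcribe heavily and store mRNA for later use, and transcription stops as they reach full size.

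The targeted gene, listed under its older symbol Skiv2l2 (now Mtrex), had 27.6 FPKM in WT against 1.57 FPKM in Mtr4-null oocytes at day 14, the largest fall of the comparison at -3.48. Oocyte RNAs were at the same order of magnitude in both. All 18 oocyte markers checked lay between 90.8 and 4247 FPKM in WT and between 88.1 and 4628 FPKM in Mtr4-null oocytes, and none was 2-fold apart. Gdf9, a growth factor secreted by the oocyte, had 4247 and 4409 FPKM, and the zona pellucida gene Zp3 had 4211 and 4170 FPKM. Of 20 granulosa cell markers, 5 passed the filter on low values, and the 20 summed to 29.4 FPKM in WT against 29.2 FPKM in Mtr4-null oocytes. The 5 that passed went in both directions: Cyp19a1 had 10.5 and 4.30 FPKM and Kitl 2.86 and 2.25 FPKM, while Nr5a2 had 8.02 and 10.5 FPKM, Inha 2.68 and 4.22 FPKM and Fshr 2.03 and 3.16 FPKM. The defining granulosa markers Foxl2 (0.169 and 0.0754 FPKM) and Amh (0.0380 and 0.144 FPKM) were near 0. Of 20 markers of theca, stroma, endothelium and blood, 4 passed. Their sums were 22.7 FPKM in WT against 17.0 FPKM in Mtr4-null oocytes, and Col1a1, Lum, Hba-a1 and Hbb-b1 were listed at 0 in both. In pooled oocytes like these, fewer contaminating cells and less RNA per cell cannot be told apart.

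RNA was higher far more often than lower in the absence of MTR4. At day 14, 872 genes (7.42%) were at least 2-fold higher in Mtr4-null oocytes and 162 (1.38%) at least 2-fold lower, so that 84.3% of the 1034 genes past that size were higher. The asymmetry was wider at larger sizes, with 259 genes higher and 8 lower at 4-fold and 114 higher and 1 lower at 8-fold, the last being Skiv2l2 itself. Most of the transcriptome was little changed: 77.5% of genes were within 1.5-fold, and the median difference was 0.05 (quartiles -0.22 and 0.40). The 872 higher genes together held 0.812% of the summed FPKM in WT and 4.56% in Mtr4-null oocytes. The 162 lower genes held 1.88% in WT and 0.848% in Mtr4-null oocytes.

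**Figure D1:**
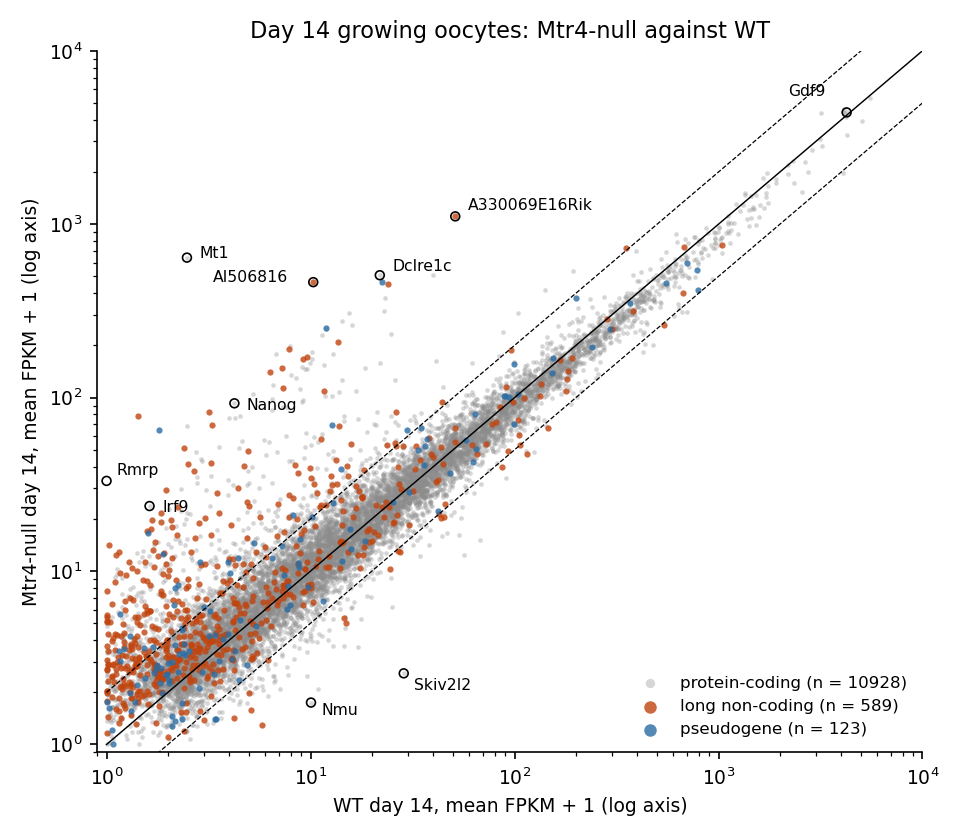
Mean FPKM + 1 of each gene in WT (x axis) and Mtr4-null (y axis) oocytes at day 14, both on log axes, for protein-coding, long non-coding and pseudogene symbols; the solid line marks equal values and the dashed lines 2-fold. The points above the upper dashed line outnumber those below the lower one, most of them start from low WT values, and Skiv2l2 lies far below the diagonal.

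Gene classes from RefSeq were unevenly affected. Long non-coding genes numbered 589, of which 228 were higher and 18 lower (median difference 0.67). Of 123 pseudogenes, 27 were higher and 2 lower (median 0.34). The 10928 protein-coding genes had 604 (5.53%) higher and 138 lower (median 0.03), so coding genes still made up most of the higher genes by number. The long non-coding genes with the largest differences came from WT values under 10 FPKM. 2900060B14Rik, antisense to Clasp1, had 0.426 FPKM in WT against 77.7 FPKM in Mtr4-null oocytes, a difference of 5.79. AI506816 had 9.31 and 462 FPKM, and Gm7616, antisense to Nr2e3, had 2.17 and 82.0 FPKM. All 3 were below the WT median of all genes, 10.0 FPKM, in WT oocytes and above it without MTR4.

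The size of the difference followed WT abundance. Of the 36 genes listed at 0 in WT day 14 oocytes, 26 were higher, and of the 809 genes above 0 and under 1 FPKM, 290 were higher (35.8%) and 0 lower. These genes could pass the filter only through another group, so a gene low in WT had to be higher somewhere to be counted, and a gene under 1 FPKM cannot be 2-fold lower on this scale. The limit reaches the lower part of the next class too, since a gene under 4 FPKM in WT needs RNA in other groups to pass, and a gene near 1 FPKM is 2-fold lower only if it is close to 0. Of 5028 genes from 1 to under 10 FPKM in WT, 440 were higher (8.75%) and 82 lower, with a median difference of 0.15. Of 4704 genes from 10 to under 100 FPKM, 112 were higher (2.38%) and 65 lower (median -0.02). Of 1171 genes at 100 FPKM and over, 4 were higher and 15 lower (median -0.18). With a filter that takes nothing from the Mtr4-null columns, a mean of at least 1 FPKM over the WT groups, 553 of 11078 genes were higher and 164 lower.

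The WT day 14 value enters both the class and the difference. The order of the classes was also seen with classes set from WT day 21, which is not part of the contrast but is part of the filter. There the medians were 1.20, 0.65, 0.15, -0.03 and -0.18 from the lowest to the highest class. Genes under 1 FPKM in WT at day 21 also needed RNA in another group to pass, so the medians of the lowest classes are again partly fixed by the filter. In the same WT day 14 class, long non-coding genes were higher more often than coding genes. From 1 to under 10 FPKM, 83 of 272 long non-coding genes (30.5%) and 341 of 4640 coding genes (7.35%) were higher. From 10 to under 100 FPKM the counts were 22 of 99 (22.2%) and 82 of 4548 (1.80%). Long non-coding genes were also lower more often there, in 8 of 99 cases (8.08%) against 1.23% of coding genes. At 100 FPKM and over 1 of 21 was higher and 3 were lower (14.3%), with a median of -0.38 against -0.17 for coding genes.

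**Figure D2:**
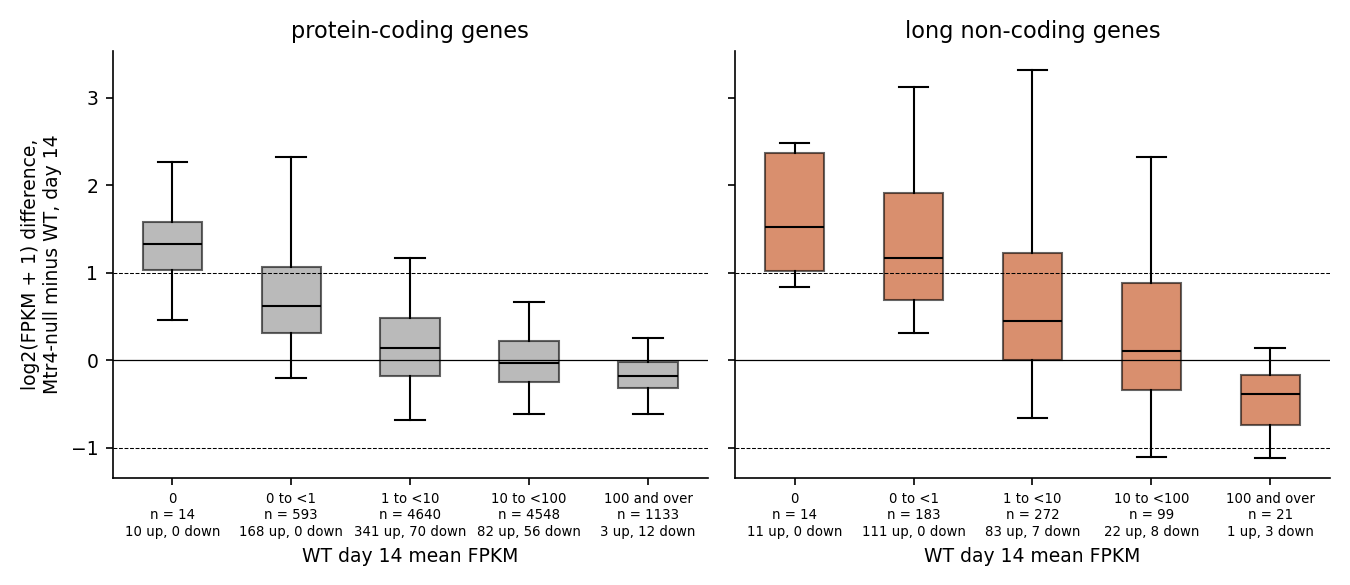
Difference of log2(FPKM + 1), Mtr4-null minus WT at day 14 (y axis), by WT day 14 mean FPKM class (x axis) for protein-coding (left) and long non-coding (right) genes; boxes span the quartiles over genes with the median as a line, whiskers run from the 5th to the 95th percentile, and dashed lines mark 2-fold. The boxes come down from the lowest to the highest WT class in both panels, and the long non-coding medians of the first 4 classes lie above the coding ones.

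Many of the higher long non-coding genes start head to head with a coding gene, on the opposite strand and within 1000 bases of its start. The promoters of 3 such genes are printed here to show the shared CpG-rich stretch between a pair: of the head-to-head pairs, these 3 had the largest differences among those whose RefSeq window (250 bases before to 50 after the start of the long non-coding gene, GRCm38.p6, with the 50 transcribed bases in capitals) touches no annotated coding gene. The Snhg10 window (chr12:105032230-105032529, minus strand) lies between Snhg10, which also hosts a snoRNA, and Glrx5, a mitochondrial glutaredoxin, whose annotated starts are 409 bases apart. The 2310010J17Rik window (chr7:90129887-90130186, minus strand) lies on the side of Picalm, a clathrin adaptor gene, with 229 bases between starts. The C630043F03Rik window (chr4:72200994-72201293, plus strand) lies on the side of Tle1, a transcriptional corepressor, with 429 bases between starts. These distances are between GENCODE starts, while the windows are set from RefSeq starts, so the 229 bases at Picalm are not measured from its window. They hold 36, 46 and 41 CpG, against a median of 28 for head-to-head long non-coding genes, 24 for head-to-head coding genes, 20 for coding genes apart and 7 over all 32851 windows of the RefSeq table, so that CpG richness is not particular to them.
Snhg10: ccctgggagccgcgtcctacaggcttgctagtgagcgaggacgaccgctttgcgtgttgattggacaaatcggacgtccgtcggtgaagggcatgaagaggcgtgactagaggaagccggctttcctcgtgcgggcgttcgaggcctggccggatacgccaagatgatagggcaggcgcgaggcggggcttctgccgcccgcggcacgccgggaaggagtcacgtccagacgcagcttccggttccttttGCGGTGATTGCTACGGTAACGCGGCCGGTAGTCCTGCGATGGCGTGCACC
2310010J17Rik: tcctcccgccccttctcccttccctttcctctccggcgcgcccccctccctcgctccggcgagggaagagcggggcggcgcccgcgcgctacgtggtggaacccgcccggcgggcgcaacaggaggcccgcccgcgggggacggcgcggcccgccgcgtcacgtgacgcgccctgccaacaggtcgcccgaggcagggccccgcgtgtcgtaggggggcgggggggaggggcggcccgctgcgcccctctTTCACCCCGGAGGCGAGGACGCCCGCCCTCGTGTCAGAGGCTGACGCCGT
C630043F03Rik: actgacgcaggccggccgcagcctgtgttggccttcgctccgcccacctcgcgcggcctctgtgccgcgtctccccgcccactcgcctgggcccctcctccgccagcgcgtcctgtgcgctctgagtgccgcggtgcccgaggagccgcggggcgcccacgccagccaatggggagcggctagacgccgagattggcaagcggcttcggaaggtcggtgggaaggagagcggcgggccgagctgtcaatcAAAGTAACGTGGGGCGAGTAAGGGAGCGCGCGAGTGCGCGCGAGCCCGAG
Their values, which chose the long non-coding genes and are given as a description, stand here beside those of the neighbours. Snhg10 had 6.89 FPKM in WT against 26.3 FPKM in Mtr4-null oocytes, and Glrx5 had 154 and 129 FPKM. 2310010J17Rik had 1.12 and 4.42 FPKM, and Picalm had 12.9 and 8.11 FPKM. C630043F03Rik had 0.626 and 3.02 FPKM, and Tle1 had 2.97 and 2.62 FPKM. The 3 coding neighbours were within 2-fold.

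By position, 90 of 178 long non-coding genes in head-to-head pairs (50.6%) were higher and 1 was lower (median 1.01). Of 142 that overlap a coding gene on the opposite strand, 50 were higher and 5 lower (median 0.51), though without strand their reads and those of the coding gene cannot be told apart. Of 214 that lie apart from coding genes, 62 were higher (29.0%) and 9 lower (median 0.41). At matched abundance the gap between the first and the last group differed in size. From 1 to under 10 FPKM in WT, 31 of 83 head-to-head genes (37.3%) and 28 of 94 genes apart (29.8%) were higher, and at 10 FPKM and over 9 of 24 (37.5%) and 5 of 64 (7.81%). Head-to-head coding genes showed no such gap: from 1 to under 10 FPKM 7.33% of 641 were higher, against 7.51% of 3234 coding genes apart, and at 10 FPKM and over 2.05% of 1171 against 1.29% of 3561.

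The coding partners differed between genotypes about as often as other genes did. A measured coding partner was found for 157 of the head-to-head long non-coding genes. Among the 83 pairs in which the long non-coding gene was higher, its median went from 0.850 FPKM in WT to 7.58 FPKM in Mtr4-null oocytes, while the partners had a median difference of -0.06 (quartiles -0.24 and 0.18) from a median WT level of 16 FPKM. Of these 83 partners, 67 were within 1.5-fold, 3 were higher (3.61%) and 1 was lower. Over all genes 77.5% were within 1.5-fold and 7.42% higher, and over genes from 10 to under 100 FPKM in WT 86.4% and 2.38%. A330069E16Rik, next to the DNA damage-binding protein gene Ddb2, had the highest level of any long non-coding gene of such a pair in Mtr4-null oocytes, with 50.2 FPKM in WT and 1108 FPKM without MTR4. Ddb2 had 47.0 and 31.6 FPKM. Gm5129, a single-exon gene next to the co-chaperone gene Dnajb6, had 1.41 and 50.3 FPKM, against 536 and 498 FPKM for Dnajb6. Gm9958 had 0.0232 and 13.1 FPKM beside Ankrd17 with 39.9 and 25.6 FPKM. 4930579K19Rik had 0.147 and 11.8 FPKM beside the coatomer gene Copb2 with 67.4 and 63.3 FPKM. One partner that did move with its neighbour was Ccdc17, at 0.215 and 3.02 FPKM, beside C530005A16Rik at 0.527 and 4.67 FPKM. A330069E16Rik and Gm9958 fall under the rule for named genes, and the other pairs of this paragraph were chosen after their values were seen.

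**Figure D3:**
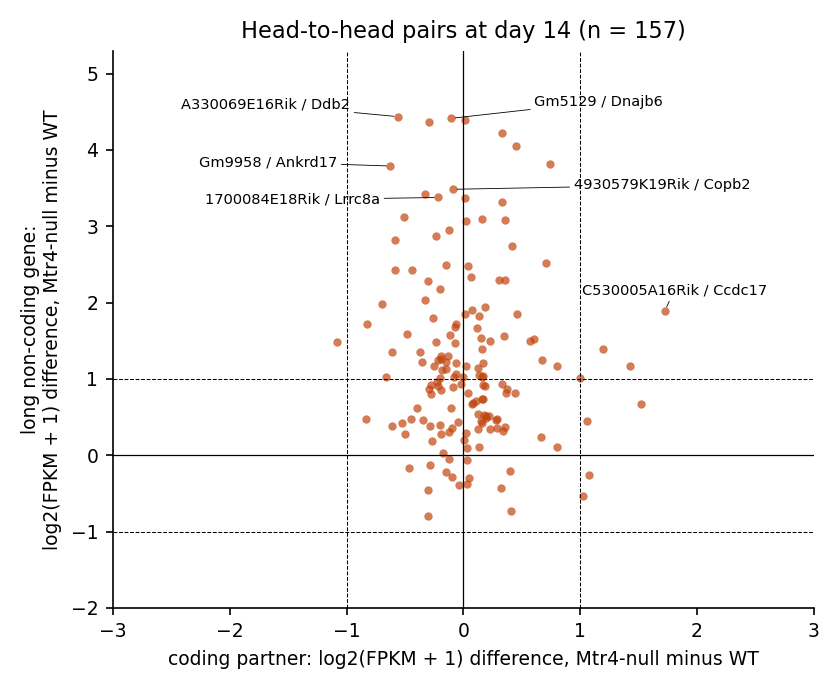
Difference of log2(FPKM + 1), Mtr4-null minus WT at day 14, of a long non-coding gene (y axis) and of the coding gene it starts head to head with (x axis), 1 point for each of 157 pairs; dashed lines mark 2-fold. The points rise along the y axis, up to 4.44 for A330069E16Rik, while most stay within the dashed lines on the x axis.

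The long non-coding genes also differed by CpG content and exon number. A RefSeq window was found for 473 of the 589 (80.3%). Of those with at least 15 CpG in the 300 bases, 112 of 205 were higher and 0 lower (median 1.07), and the share was alike for head-to-head genes (69 of 124) and the others (43 of 81). Of those with 5 to 14 CpG, 42 of 132 were higher (5 of 19 head to head and 37 of 113 others). Of those with 0 to 4 CpG, 36 of 136 were higher and 9 lower (median 0.26), with 1 of 4 head to head and 35 of 132 others higher. The gap by position was thus not seen within these CpG classes, which were not matched for WT abundance. Position and CpG content go together in these genes, and their separate parts were not tested. The CpG-rich genes were also less abundant in WT (median 1.23 FPKM, against 3.13 FPKM with 0 to 4 CpG). From 1 to under 10 FPKM in WT, 33 of 79 CpG-rich genes (41.8%) and 18 of 69 CpG-poor genes (26.1%) were higher, and at 10 FPKM and over 11 of 29 and 4 of 39.

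Long non-coding genes with few exons were higher most often, in 25 of 32 cases with 1 exon (median 2.22), 41 of 61 with 2 exons, 118 of 355 with 3 to 5 exons and 19 of 81 with 6 to 10 exons. The same order was seen from 1 to under 10 FPKM in WT, where the shares were 8 of 12, 18 of 29, 46 of 172 and 8 of 36. Coding genes showed it at lower shares: 53 of 204 with 1 exon were higher (median 0.60), 63 of 386 with 2 exons, and 148 of 4654 with over 10 exons. Genomic length went the same way. With coding genes cut into 5 equal groups by genomic length, 222 of 2179 in the shortest group were higher and 31 lower, and 56 of 2178 in the longest group were higher and 33 lower. Exon numbers and lengths are those of GENCODE vM21, so they describe the annotated gene, and the table does not say which part of it the reads came from.

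**Figure D4:**
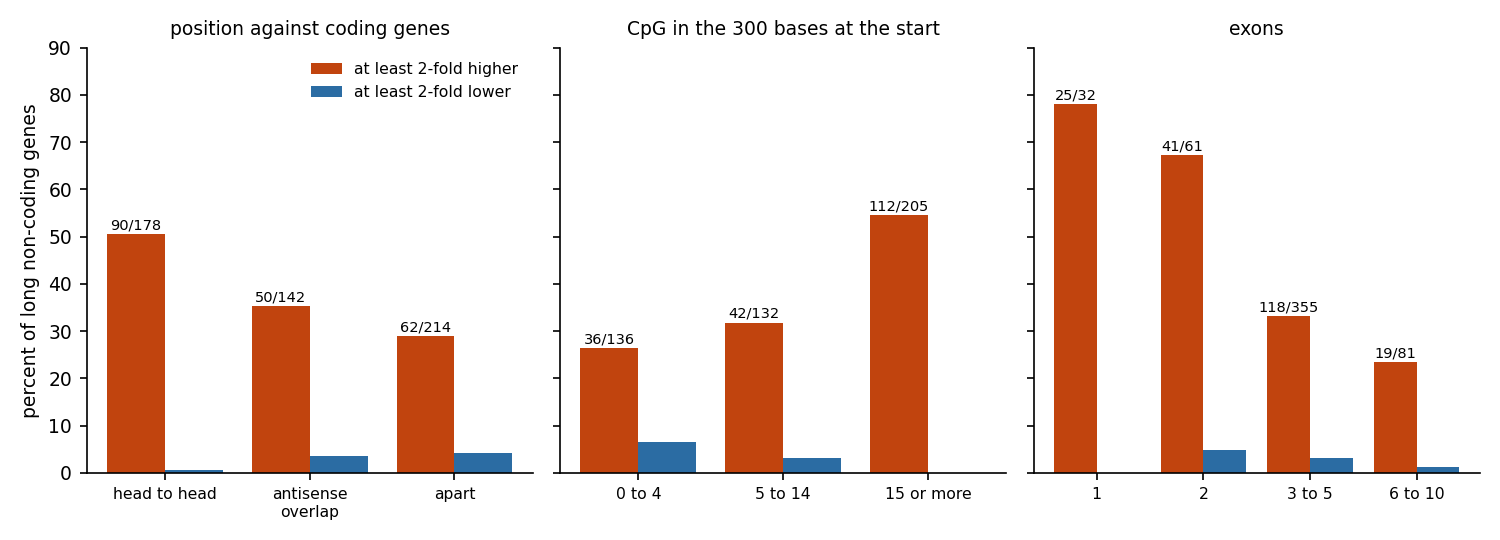
Percent of long non-coding genes at least 2-fold higher (orange) or lower (blue) in Mtr4-null oocytes at day 14 (y axis), by position against coding genes, CpG number in the 300-base window at the start, and exon number (x axes); labels give the higher genes of those measured. The orange bars range from 19 of 81 to 25 of 32 and exceed the blue bars in each category shown.

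RNAs that carry or make small nucleolar RNAs (snoRNAs) were among the higher ones when the host is non-coding. snoRNAs guide the modification of ribosomal RNA, and most mouse snoRNAs are cut out of introns of a host transcript whose spliced exons are a by-product. Of 14 long non-coding genes with an annotated snoRNA in an intron, 10 were higher and 0 lower, with a median difference of 1.69. Of 523 long non-coding genes that host none, 193 were higher (36.9%) and 15 lower (median 0.62). These 2 groups were not matched for WT abundance or exon number. Snhg3, which overlaps Rcc1 on the same strand, had 5.32 FPKM in WT against 140 FPKM in Mtr4-null oocytes, and Snhg9, antisense to the ribosomal protein gene Rps2, had 12.6 and 209 FPKM. Other hosts were near their WT level, such as Snhg6 at 97.0 and 93.0 FPKM and Snhg5 at 9.91 and 10.7 FPKM, both chosen after their values were seen. Of 188 coding genes that host a snoRNA, 4 were higher and 2 lower (median 0.02). In a name-based list of non-coding hosts and related RNAs, 10 of 16 were higher, but with the filter on the WT groups 3 of 8 were, at a median of 0.29, so that count rests on members with little RNA in WT.

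A few structured RNAs made without a poly(A) tail, listed at 0 in WT, had values in the oligo-dT libraries of Mtr4-null oocytes. Rmrp, the RNA of the RNase MRP that cleaves ribosomal RNA precursors, was listed at 0 in WT and had 32.1 FPKM in Mtr4-null oocytes. Rpph1, the RNA of RNase P, was listed at 0 in WT and had 11.7 FPKM. The vault RNA Vaultrc5 (0 and 6.66 FPKM) and the snoRNA gene model Gm12238, in an intron of G3bp1 (0 and 45.5 FPKM), went the same way. Telomerase RNA, Terc, chosen after its values were seen, was listed at 0 in WT and had 2.71 FPKM. At day 21, Rmrp was again listed at 0 in WT, with 212 FPKM in Mtr4-null oocytes. No fold is given for these genes because the WT value is 0. They were picked for that WT value or after their values were seen, so their rise is a description. An RNA such as Rmrp could pass the filter only through the Mtr4-null groups. Gm12238 was not absent from WT at day 21, where it had 10.3 FPKM. FPKM of genes this short are unstable.

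Replication-dependent histone mRNAs, which normally end in a stem-loop instead of a tail, were higher in 13 of 27 measured genes (of 68 listed) and lower in 0, with a median difference of 0.97. With the filter on the WT groups, 8 of 19 were higher. Among all coding genes with 1 exon, 26.0% were higher, and 29.3% of those from 1 to under 10 FPKM in WT. Histone genes under 1 FPKM in WT could not be called lower on this scale. The 3 largest differences were of H4 genes, Hist1h4i, Hist1h4c and Hist2h4, while Hist1h4d, at 1.28 and 2.83 FPKM, did not reach 2-fold on this scale. A stem-loop of 16 bases (searched as GG, NN, CTTTT, N, AG, NN and CC in a row, N being any base) was found on the transcribed strand in 19 of the 27, and in 0.167% of 58797 coding transcripts of GENCODE vM21. It is shown in capitals with 5 bases on each side for the 3 largest differences among genes that hold it. It is not the annotated end of these 3: 330 bases follow it in Hist1h4i, 454 in Hist1h4c and 1257 in Hist2h4. Whether the reads lie before or after it is not known.
Hist1h4i: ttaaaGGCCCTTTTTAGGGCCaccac
Hist1h4c: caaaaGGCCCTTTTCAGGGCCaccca
Hist2h4: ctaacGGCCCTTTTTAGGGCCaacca
Hist1h4i had 1.92 FPKM in WT against 41.9 FPKM in Mtr4-null oocytes, Hist1h4c had 1.48 and 20.8 FPKM, and Hist2h4 had 2.21 and 22.6 FPKM. Of the 19 with the form, 9 were higher, with a median of 0.97, and of the 8 in which it was not found, 4, with a median of 0.93. The search depends on the annotated sequence and on this form of the letters. The 8 may therefore hold a stem-loop that it missed, and the split cannot show whether the stem-loop matters. Histone copies are near identical in sequence, so how reads were shared among them is uncertain. The most abundant member, Hist1h2bc, had 257 and 212 FPKM, and of 21 histone variant and chaperone genes only H2afj, at 6.09 and 24.9 FPKM, was higher.

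Among coding genes, the largest difference belonged to Mt1, which encodes a metallothionein, a small protein that binds zinc and copper. Mt1 had 1.48 FPKM in WT against 640 FPKM in Mtr4-null oocytes, a difference of 8.02. Its relatives did not share it: Mt4 had 35.5 and 23.1 FPKM, Mt2 had 0.724 and 0.199 FPKM, and Mtf1, the zinc-sensing transcription factor of metallothionein genes, had 10.8 and 10.7 FPKM. Mt2, Mt3 and other low symbols did not pass the filter. Of 19 measured genes of metallothioneins and zinc handling, Mt1 alone was higher.

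Other coding genes were moved from low to high levels. Ccdc48 had 1.49 and 67.5 FPKM, Lrrc2 had 5.79 and 178 FPKM, and Gm5531, antisense to Teddm2, had 6.94 and 198 FPKM. Dclre1c, which encodes the Artemis nuclease of DNA end joining, had 20.9 and 507 FPKM, but it overlaps Suv39h2 on the opposite strand. Irf9, the DNA-binding subunit of an interferon-activated factor, had 0.625 and 22.7 FPKM and overlaps Rnf31 on the same strand. No other gene of the 18 measured interferon response genes was higher. Nanog, a homeodomain factor of pluripotent cells chosen after its values were seen, had 3.23 and 91.7 FPKM. Other pluripotency factors, looked up for the same reason, were within 2-fold: Pou5f1 had 34.1 and 50.7 FPKM, Klf4 had 1.52 and 1.48 FPKM, and Sox2, below the filter, had 0.467 and 0.108 FPKM.

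Only 4 genes at 100 FPKM and over in WT were higher. Polr2l, a small subunit shared by the nuclear RNA polymerases, had 140 and 416 FPKM. Gm12942 had 103 and 306 FPKM, Gm14295 had 192 and 536 FPKM, and the non-coding Gm16702 had 351 and 731 FPKM. None of these reached 4-fold. Pseudogenes with large differences were Rplp2-ps1 (0.804 and 64.0 FPKM), Vmn2r-ps129 (10.9 and 249.8 FPKM) and Gm15645 (21.4 and 464 FPKM), and reads of a pseudogene may belong to its parent gene.

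The RNA decay machinery had higher genes at shares near the 7.42% of all genes and the 5.53% of coding genes. Of 15 exosome core and nuclease genes 1 was higher (6.67%) and 14 were within 2-fold (list median -0.06), among them the nucleases Exosc10 (23.1 and 17.5 FPKM) and Dis3 (2.72 and 2.81 FPKM). The exception was Exosc2, a subunit of the exosome cap, with 23.8 FPKM in WT against 233 FPKM in Mtr4-null oocytes. Among 21 adaptor and cap-binding partners, Srrt, which encodes the ARS2 protein that links the cap to decay, was higher at 4.98 and 16.8 FPKM. The NEXT subunits Zcchc8 (40.2 and 46.1 FPKM) and Rbm7 (195 and 180 FPKM) and the TRAMP subunit Zcchc7 (24.5 and 22 FPKM) were near their WT level. Zfc3h1 had 2.92 and 5.16 FPKM, short of 2-fold.

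Other RNA pathways had single members past the limit, or none. Over all genes 7.42% were higher and 1.38% lower, and over genes from 10 to under 100 FPKM in WT 2.38% and 1.38%. The median WT levels of these lists lay between 13.3 and 48.4 FPKM, so low counts are not particular to them. Of 30 genes of the SKI complex and cytoplasmic decay, Smg5 (1.79 and 4.62 FPKM) was higher and Upf3b (19.1 and 8.0 FPKM) lower, both of nonsense-mediated decay. Of 14 deadenylation genes Cnot3 was higher (7.14%), with 19.7 and 41.0 FPKM. Of 35 genes of 3′ end processing and termination Cstf3, a subunit of the cleavage stimulation factor, was higher, with 17.8 and 62.3 FPKM. None of 12 Integrator, 64 translation factor and 50 DEAD or DEAH box helicase genes was past 2-fold in either direction. Of 71 spliceosome and hnRNP genes, 1 was higher, Prpf18, with 25.3 and 56.1 FPKM.

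Genes for the translation apparatus and for energy supply had few members past 2-fold, with medians slightly below 0 in several lists. Abundant genes as a whole were also below 0, with a median of -0.18 at 100 FPKM and over in WT. The cytosolic ribosomal protein and oxidative phosphorylation lists had median WT levels of 235 and 167 FPKM. Of 85 cytosolic ribosomal protein genes, with a median difference of -0.25, 1 was higher (Rpl7l1, 24.9 and 126 FPKM) and 1 lower (Rps27, 437 and 203 FPKM). Of 76 mitochondrial ribosomal protein genes (median -0.14) 4 were higher (5.26%): Mrpl43 (24.9 and 71.1 FPKM), Mrpl9 (86.4 and 239 FPKM), Mrpl51 (25.8 and 68.6 FPKM) and Mrpl36 (37.7 and 76.5 FPKM). All 4 are annotated head to head with another gene, and a link of this to their rise was not tested. Over all coding genes, 4.69% of those head to head and 5.82% of those apart were higher. Of 85 oxidative phosphorylation genes (median -0.20) 2 were lower, Cox6a2 (11.9 and 2.69 FPKM) and Ndufs5 (67.6 and 30.8 FPKM). Ribosome biogenesis had 5 higher genes of 63 (7.94%), against 7.42% of all genes and 5.53% of coding genes. The foremost was Nip7, a factor in assembly of the large subunit, with 38.6 and 510 FPKM.

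Transcription and DNA repair genes were higher at shares below the 7.42% of all genes and the 5.53% of coding genes. Chromatin regulators were close to the coding share. Of 121 chromatin regulators 7 were higher (5.79%) and 0 lower, and the higher ones include the pseudogene Smarca5-ps (0.219 and 2.56 FPKM). Brd8, a subunit of the TIP60 acetyltransferase complex, had 10.3 and 60.7 FPKM, Suv420h1, a histone H4 methyltransferase, had 5.20 and 21.4 FPKM, and the Polycomb gene Cbx8 had 3.94 and 9.62 FPKM. Of 99 genes of RNA polymerases, general factors and Mediator, Polr2l and Polr3e (4.45 and 11.8 FPKM) were higher (2.02%). Dclre1c and Fancf (0.825 and 3.69 FPKM) were the 2 higher of 69 DNA repair genes (2.90%).

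The Zfp zinc finger genes, a large family of DNA-binding proteins, were higher at a larger share than all genes. Of 309 measured members, 42 (13.6%) were higher and 1 was lower (median 0.31). Most of these genes are of low abundance, so they were set against other coding genes of the same WT class. From 1 to under 10 FPKM, 32 of 184 were higher (17.4%, median 0.50), against 309 of 4458 other coding genes (6.93%, median 0.13). Under 1 FPKM the counts were 8 of 25 and 160 of 568, and from 10 to under 100 FPKM 2 of 92 and 80 of 4456. Zfp607 had 11 and 247 FPKM, Zfp113 had 4.18 and 39.0 FPKM, Zfp12 had 5.08 and 45.7 FPKM, and Zfp799 had 0.516 and 12 FPKM. Zinc finger copies resemble each other in sequence, so reads may be split among them. Quantile normalization left 24 higher, at a median of 0.11.

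Most genes of oocyte programmes are abundant, and abundant genes were rarely past 2-fold (2.38% higher from 10 to under 100 FPKM in WT, and 0.342% at 100 FPKM and over). None of 22 oocyte transcription factor genes, 11 zona pellucida and secreted factor genes and 21 meiotic prophase genes was past 2-fold. Of 31 maternal effect genes only Bcas2, a component of the spliceosome, was higher, with 40.2 and 162 FPKM. In a list of 40 meiotic arrest and spindle checkpoint genes, Sgol2, the protector of centromeric cohesin, was higher (20.1 and 81.2 FPKM, with Kctd18 on the opposite strand) and Ccnb3, a cyclin used in oocyte meiosis, was lower (7.31 and 2.09 FPKM). The oocyte-specific NLRP, oogenesin and Oas1 families had a median of -0.31 over 32 genes with 1 member lower, Oas1f, at 24.2 and 5.22 FPKM. Their median WT level was 275 FPKM, and all genes at 100 FPKM and over in WT had a median of -0.18. Of 17 long non-coding RNAs of nuclear and imprinted lists, 7 passed the filter and 5 of these were higher. Over all 589 long non-coding genes 38.7% were higher. The 5 include Malat1 (3.66 and 9.99 FPKM), Tug1 (22.8 and 52.4 FPKM), Airn (2.72 and 7.72 FPKM) and Dleu2 (0.152 and 1.91 FPKM). With quantile normalization 2 of them were past 2-fold.

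Stress and growth lists had few members past 2-fold. None of 29 p53 response and apoptosis genes, 35 genes of the unfolded protein response and 34 genes of oxidative stress defence was. Mdm4, which restrains p53, had 427 and 233 FPKM. The secretory chaperone Calr had 253 and 234 FPKM. Of 51 heat shock and chaperone genes 2 were higher and 1, Dnajb4 (142 and 67.6 FPKM), lower. Ier2 (3.15 and 13.5 FPKM) and the phosphatase gene Dusp2 (20.2 and 47.5 FPKM) were the 2 higher of 12 immediate early genes (16.7%, against 7.42% of all genes). The median of that list, 0.40, became -0.05 with the filter on the WT groups. Of 36 genes of PI3K, mTOR and FOXO signalling, Pik3r2 was higher at 2.01 and 5.91 FPKM. None of 5 Sprouty and Spred genes, which restrain receptor tyrosine kinase signalling, was past 2-fold at day 14. Spry4 had 57.7 and 36.3 FPKM at day 14, and 118 and 4.82 FPKM at day 21.

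Genes of transport across membranes and between compartments were higher at shares of 4.38% to 7.73%, against 7.42% of all genes and 5.53% of coding genes. Of 181 solute carrier genes 14 were higher (7.73%) and 3 lower. The largest were Slc7a14 (8.61 and 145 FPKM), Slc35d2 (3.48 and 50.4 FPKM) and Slc11a1 (0.824 and 8.76 FPKM), and the neutral amino acid transporter gene Slc6a15 was lower (8.64 and 1.47 FPKM). Of 45 genes of ion transport and cell volume 2 were higher (4.44%) and 1 lower. Slc9a3r2 (2.92 and 11.1 FPKM) and the sodium-proton exchanger gene Slc9a3 (5.67 and 13.6 FPKM) were higher and the water and glycerol channel gene Aqp9 (13.7 and 4.40 FPKM) lower. Of 160 endomembrane trafficking genes 7 were higher (4.38%) and 0 lower, led by Rab33b, a Golgi small GTPase, with 12.8 and 107 FPKM. Ogdh, a subunit of an enzyme of the TCA cycle, was the 1 higher gene of 35 in glycolysis and the TCA cycle, with 21 and 157 FPKM.

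The 162 lower genes had a median WT level of 9.91 FPKM, against 1.80 FPKM for the higher genes, a gap that the scale and the filter partly fix, as no gene under 1 FPKM in WT can be called lower. After Skiv2l2, the largest fall was that of Nmu, which encodes the peptide neuromedin U, with 9.05 and 0.745 FPKM. Fam162b had 9.85 and 1.09 FPKM, Rgn, the calcium-binding regucalcin, had 16.1 and 2.63 FPKM, and 4930588N13Rik had 55.3 and 11.4 FPKM. The lipase gene Pnpla3 had 66.7 and 14.1 FPKM, the chemokine gene Ccl2 had 6.08 and 1.10 FPKM, and the serotonin receptor gene Htr5a had 5.20 and 0.895 FPKM.

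At 100 FPKM and over the falls were under 3-fold. Agr3 had 124 and 47.4 FPKM, 7420461P10Rik had 475 and 200.1 FPKM, Intu, a planar polarity gene, had 427 and 183 FPKM, and Gnrh1, the gonadotropin-releasing hormone gene, had 113 and 48.5 FPKM. The non-coding falls included Gm19757 (114 and 46.6 FPKM), 2310069G16Rik (13.9 and 4.03 FPKM) and BB031773 (13.6 and 4.34 FPKM). Cyp19a1, the aromatase gene of granulosa cells, had 10.5 and 4.30 FPKM, the 1 granulosa marker past 2-fold of the 5 that passed the filter. Foxl2 and Amh were near 0 in both groups, and the part of granulosa RNA in this fall was not tested.

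The day 14 differences were mostly present at day 21, in other libraries. Of the 872 genes higher at day 14, 799 (91.6%) were also at least 2-fold higher at day 21, where 19.8% of all genes were, and 0 were 2-fold lower. The filter took in the day 21 groups too. Of the 872, 26 were listed at 0 and 290 under 1 FPKM in WT at day 14, and these could pass only through another group. The day 21 Mtr4-null group is one of those, so part of the kept share was fixed by the filter. The share over all genes was not matched for WT abundance. All 114 genes that were 8-fold higher at day 14 were 2-fold higher at day 21. Their median difference was 3.72 at day 14 and 6.20 at day 21. Over all 872, 82.2% had a larger difference at day 21. Mt1 was not among them (1.77 and 446 FPKM at day 21, a difference of 7.33). AI506816 had 11.1 and 2710 FPKM at day 21, A330069E16Rik had 71.0 and 9623 FPKM, Lrrc2 had 7.55 and 1257 FPKM, and Nanog had 4.67 and 615 FPKM.

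Falls at day 14 were kept at a like share, but they were a small part of the falls at day 21. Of the 162 genes lower at day 14, 146 (90.1%) were 2-fold lower at day 21, where 25.9% of all genes were, and 3 were 2-fold higher. Seen from day 21, the 799 genes were 34.3% of its 2327 higher genes, and the 146 were 4.79% of its 3048 lower genes. Of the genes lower at day 21, 79.3% were below 0 at day 14, against 45.5% of all genes. Of the genes higher at day 21, 95.9% were above 0 at day 14, against 54.4% of all genes. These shares were not matched for WT abundance, and genes at 100 FPKM and over in WT had a median of -0.18 at day 14. Signs near 0 also depend on the scaling: the median over all genes, 0.05, became -0.05 with median-of-ratios scaling and -0.10 with quantile normalization. The day 21 Mtr4-null column may be a mean over fewer libraries than the other columns, judging by its decimals. The labels list 3 samples for that group, while the submitters' design text mentions duplicates.

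A few genes did not keep their day 14 difference. Cnot3 had 19.7 and 41.0 FPKM at day 14 but 43.1 and 24 FPKM at day 21, and Srrt had 4.98 and 16.8 FPKM at day 14 but 8.20 and 9.01 FPKM at day 21. Hist1h4a had 0.468 and 5.71 FPKM at day 14 and 1.46 and 1.12 FPKM at day 21, unlike Hist1h4i, which had 1.71 and 39.0 FPKM at day 21. Tslp, which encodes a cytokine, had 0.400 and 5.40 FPKM at day 14 and 2.51 and 2.92 FPKM at day 21. Slc9a3 had 4.91 and 2.97 FPKM at day 21. Among the falls, Rps27 had 437 and 203 FPKM at day 14 and 474 and 902 FPKM at day 21, and Id2, an inhibitor of helix-loop-helix factors, had 8.42 and 3.02 FPKM at day 14 and 3.97 and 8.33 FPKM at day 21.

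**Figure D5:**
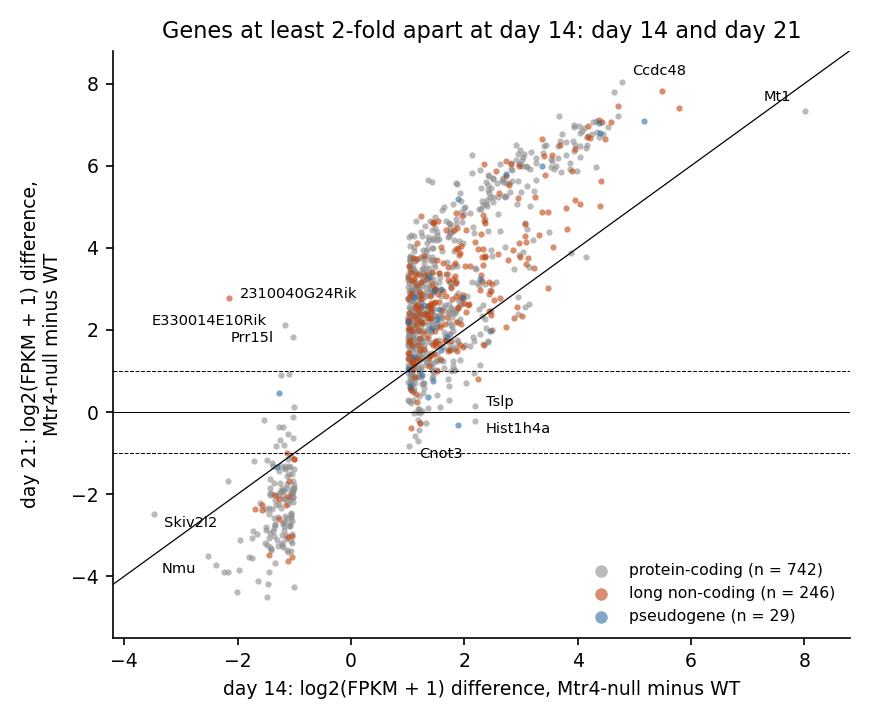
Difference of log2(FPKM + 1), Mtr4-null minus WT, at day 14 (x axis) and day 21 (y axis) for the protein-coding, long non-coding and pseudogene symbols at least 2-fold apart at day 14; the solid line marks equal differences and the dashed lines 2-fold at day 21. Most higher genes lie above the solid line, and 2310040G24Rik, E330014E10Rik and Prr15l lie in the upper left, lower at day 14 and higher at day 21.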

How the data were processed

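The deposited table holds FPKM values for 23235 gene symbols, in 1 column per group that the authors had averaged over libraries. The tools named, per the submitters' processing notes, are TopHat2 2.1.1 and Cufflinks 2.2.1, with build mm9 and without their roles; filters and the counting of shared reads are not given in the sources used here. FPKM are relative to each library, so a difference in RNA per oocyte would not show, and the ERCC spike-in is not in the table used here.

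Each difference is log2(FPKM + 1) of the Mtr4-null mean minus that of the WT mean at day 14, over symbols with a mean of at least 1 FPKM in the 4 columns. No test across libraries could be run on means, so sizes, counts and medians are given. Counts beside the members' own are those over all genes, or over a named class of genes, by the same rule. The direction was checked on simulated data.

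Gene classes came from RefSeq (GRCm38.p6), which matched 11646 of the 11748 symbols, 1214 of them by synonym. Positions, exon numbers and lengths came from GENCODE vM21, in which 11558 were found. Both are on GRCm38, so no coordinates of the files are printed. The groupings by position and CpG, the 52 gene lists and the genes of the comparison were chosen with earlier results of these data known. Genes were named by a rule: the targeted gene, the 5 largest differences in each direction by WT abundance class and by gene class among genes 2-fold apart with at least 5 FPKM in the higher group, up to 4 members of each list past 2-fold or its 2 most abundant, and the 5 rises and 5 falls that persisted least at day 21. Other names are said in the text to be chosen after their values were seen, or stand as members of a list or pair. The pseudocount, the filter, the scaling between groups, the abundance class and the fold were varied. Analyses used Python 3.11.15 with pandas 2.3.3, numpy 2.4.6 and matplotlib 3.10.9.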

Additional observations from a re-analysis of the deposited data

Results flagged for a closer look

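Genes with opposite differences at the 2 ages were 2310040G24Rik, with a log2(FPKM + 1) difference of -2.15 at day 14 and 2.77 at day 21, E330014E10Rik, with -1.17 and 2.12, and Prr15l, with -1.02 and 1.82. In FPKM, 2310040G24Rik had 4.76 in WT and 0.300 in Mtr4-null oocytes at day 14, and 0.660 and 10.4 at day 21. The difference between the ages was not tested, because each group is a single mean.

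Outside the comparison, 165 short RNA symbols (Mir, Snor, Scarna and Rnu) passed the filter on low values, and 93 of them were at least 2-fold higher and 23 lower in Mtr4-null oocytes at day 14. Of these 165, 97 were listed at 0 in WT at day 14. FPKM of genes this short are unstable, and no value per library was used here.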

How the results depend on the processing

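No paired analysis was possible because the columns are group means and carry no replicate numbers, and for the same reason no library could be left out. The 872 higher genes became 553 with a filter on the WT columns (chosen after seeing the data), 580 with a minimum mean of 5 FPKM and 1313 with a pseudocount of 0.1. The 162 lower genes became 107, with the minimum of 5 FPKM, 310 with the pseudocount of 0.1, and 322 with quantile normalization. That scaling left 628 higher genes, so the higher share of genes past 2-fold went from 84.3% to 66.1%. The median difference over all genes, 0.05, became -0.10 with it and -0.05 with median-of-ratios scaling. Of 52 list medians, most of them near 0, 18 changed sign under median-of-ratios scaling and 20 under quantile normalization, while those of zinc finger genes, histones and non-coding snoRNA hosts stayed above 0 under both. The share of head-to-head long non-coding genes that were higher, 50.6%, was 37.3% from 1 to under 10 FPKM in WT, 38.2% with the filter on the WT columns, 63.7% with the minimum of 5 FPKM, 29.4% without a filter, 61.8% with the pseudocount of 0.1 and 41.0% with quantile normalization. For genes apart it was 29.0%, then 22.4% with the WT filter, 8.54% without a filter and 38.8% with the pseudocount of 0.1. The higher share at 10 FPKM and over in WT, 1.97%, was 1.6% under either scaling. Under 1 FPKM it was 37.4%, then 31.2% classed by WT day 21, 67.0% with the pseudocount of 0.1 and 30.1% with quantile normalization. The share of day 14 rises kept at day 21, 91.6%, was 98.1% for 4-fold rises and 93.6% with median-of-ratios scaling. With a mean per group and unknown depth, genes under 1 FPKM are the least certain.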
